A study of Macaca mulatta with 52 samples.

Results

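The ZNF genes are the zinc finger genes whose symbol is ZNF followed by a number. The 232 described here were chosen by their level in rhesus monkey (Macaca mulatta) embryos, from 335 such genes among the 26309 identifiers of the count table. The rule required a mean of at least 10 CPM (a gene's count per 1000000 counts of its library) in the 8-cell, morula or expanded blastocyst libraries made with a kit called SPIA. Another 103 ZNF genes stayed below it, and 8598 identifiers of any name met the same level. Just inside the threshold were ZNF165, ZNF611 and ZNF529, whose highest stage means were 10.1, 10.4 and 10.5 CPM. Just outside were ZNF789, ZNF385A and ZNF606, at 9.51, 9.75 and 9.98 CPM.

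Most ZNF proteins bind DNA through tandem zinc fingers of the C2H2 kind. A large share of them carry a KRAB domain, which recruits the co-repressor TRIM28 and with it the histone methyltransferase SETDB1, HP1 proteins and DNA methylation, and many KRAB zinc finger proteins bind transposable elements. Other members have no KRAB domain and work as transcription activators, RNA-binding proteins, ubiquitin or SUMO ligases, or mitotic factors. KRAB zinc finger genes lie in clusters of related copies, and the early embryo is where their control of imprints and retroelements is best known.

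Single embryos were produced by in vitro fertilisation of oocytes that had matured in vivo in females given hormones, freed of cumulus cells and cultured without or with relaxin. The labels do not say which embryos received relaxin, and none carries a genetic change. SPIA, a linear cDNA amplification kit, was used for 9 8-cell embryos, 11 morulas, 14 expanded blastocysts and 2 blastocysts labelled delayed. SoLo, a low-input kit with depletion of ribosomal RNA, was used for 4 8-cell embryos, 3 morulas and 6 expanded blastocysts. All 13 of these embryos also have a SPIA library by title, and for 11 of them the libraries could be matched one to one. Library totals ran from 600966 to 21044692 counts in SPIA and from 5696436 to 10571608 in SoLo. Because SPIA levels chose the genes, SPIA stage values are a description, and the tests below are those of the SoLo libraries, although these are of the same embryos as some of the SPIA libraries. No title code (the 6 digits in a label) is shared between stages in SoLo, so title code and stage cannot be told apart there.

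The stage labels were set against marker genes. The summed level of the 4 measured 8-cell markers was 1135 to 1542 CPM in the SoLo 8-cell embryos, 23.4 to 35.8 CPM in morulas and 0 to 82.2 CPM in expanded blastocysts. The 8 measured trophectoderm markers summed to 177 to 385, 524 to 1602 and 1813 to 3491 CPM in the same order. Markers of cumulus and granulosa cells (12 measured) were high in 3 of the 4 SoLo 8-cell embryos, at 593 CPM in 020816_06, 2316 CPM in 020816_07 and 1402 CPM in 112815_02, against 21.2 CPM in 020816_08. They summed to 12.9 to 99.3 CPM in the morulas and 49.6 to 146 CPM in expanded blastocysts. The SoLo counts of ZNF genes called, and the values of some named genes, are therefore also given without those 3 embryos. This leaves 1 8-cell library in SoLo, assumed to vary like the other groups. Gene lists, runs of neighbours, stages of the highest mean and SPIA counts are not given without them.

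From here on, levels are CPM scaled by the trimmed mean of M-values (TMM). They are not divided by gene length, so they compare libraries for a gene and not genes with each other. Changes are on the log2 scale with their SE. Levels are shares of the RNA sequenced, so the amount of RNA per embryo was not measured.

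The ZNF genes as a set took the largest part of the library at the 8-cell stage. In SoLo their summed level was 13540 ± 220 CPM in 8-cell embryos (SD, n = 4), 10650 ± 1195 CPM in morulas (n = 3) and 8682 ± 639 CPM in expanded blastocysts (n = 6). The 8-cell libraries lay between 13349 and 13857 CPM, above every morula (9448 to 11838 CPM) and every expanded blastocyst (7911 to 9414 CPM). The cumulus-poor embryo 020816_08 was the lowest of the 4, at 13349 CPM. In SPIA the corresponding levels were 12565 ± 3416 CPM (n = 9), 9863 ± 3327 CPM (n = 11) and 6509 ± 1334 CPM (n = 14), and the groups overlapped. The SPIA 8-cell library 020816_09 stood apart at 20878 CPM, with the other 8 between 9349 and 14152 CPM. It did so only after TMM scaling. Of its unscaled counts the ZNF genes took 1.39%, against a mean of 1.49% and a range of 1.13% to 2.17% in that group.

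**Figure D1:**
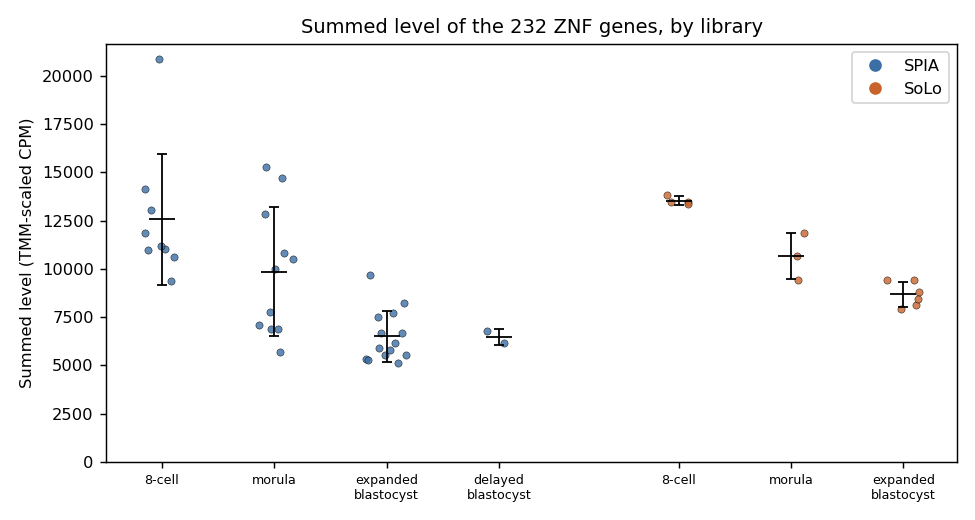
Summed level of the 232 ZNF genes (y axis, TMM-scaled CPM from 0) in each library (points) by stage and kit, with the mean and SD as bars. The 4 SoLo 8-cell libraries sit between 13349 and 13857 CPM, above all SoLo morulas and expanded blastocysts, and 1 SPIA 8-cell library stands at 20878 CPM.

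Between the 8-cell embryo and the expanded blastocyst in SoLo, 90 of the 232 ZNF genes fell and 12 rose (edgeR quasi-likelihood test, Benjamini-Hochberg adjusted p under 0.05, over 14196 genes). These are 38.8% and 5.17% of the ZNF genes. Over all genes tested, 19.8% were lower and 18.6% were higher, and over genes that met the same level rule 25.9% and 23.2%. The median log2 difference was -0.80 for the ZNF genes, -0.05 for all genes and -0.06 for genes at the same level. Among the 90 that fell the median change was -1.90 on the log2 scale, and 40 of them changed more than 4-fold. The 12 that rose had a median change of 1.46, and 2 of them changed more than 4-fold. Without the 3 cumulus-rich embryos, 63 were lower and 21 higher, with a median over all ZNF genes of -0.85. Shares over all genes by direction were not drawn up without those embryos, here or for the morula below. Those counts therefore have no background beside them. All 232 had passed the filter on low counts. Of the 87 other ZNF genes that were tested, those below the level rule, 13 fell and 6 rose.

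**Figure D2:**
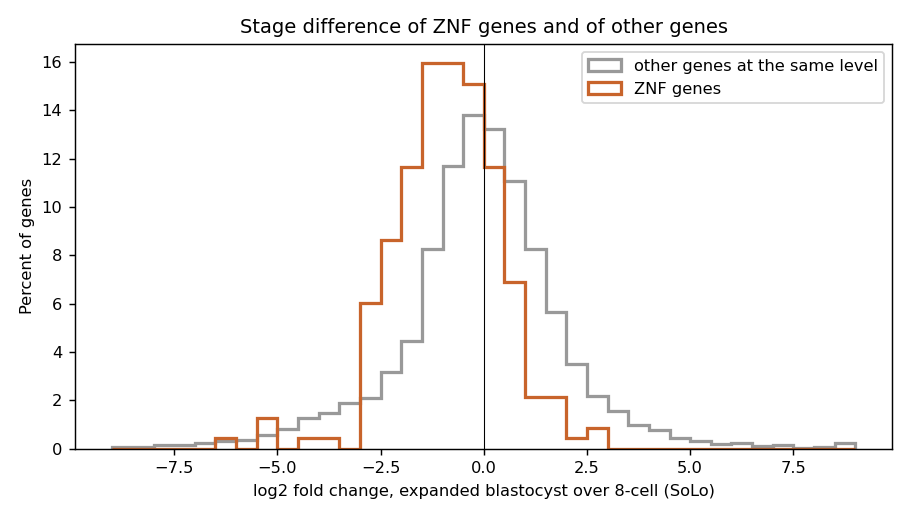
Distribution of the log2 fold change of expanded blastocyst over 8-cell in SoLo (x axis, bins of 0.5, with values beyond the axis put in the end bins) as the percent of genes (y axis), for the 232 ZNF genes and for other genes that met the same level rule. The ZNF genes lie to the left, with a median of -0.80.

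ZNF679, a KRAB zinc finger gene, had the largest fall. Its SoLo level was 191, 131, 291 and 117 CPM in the 8-cell embryos (020816_06, 020816_07, 020816_08 and 112815_02, the order used throughout). The morulas 021016_02, 021016_03 and 022916_01 had 9.63, 9.53 and 2.23 CPM, and the expanded blastocysts ran from 0.281 to 6.27 CPM with a median of 1.21. No 8-cell value overlapped a later one, and the log2 change from 8-cell to expanded blastocyst was -6.30 ± 0.76 (SE, edgeR adjusted p = 4.79e-05). In SPIA the means in stage order were 153, 13.8 and 2.16 CPM.

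ZNF616 had the same order of stages. It stood at 79.5, 126, 107 and 44.0 CPM in SoLo 8-cell embryos, at 1.47, 13.3 and 0.787 CPM in the morulas, and at 1.02 to 4.08 CPM (median 2.04) in expanded blastocysts. All 8-cell values were above all later ones, and the change to the expanded blastocyst was -5.28 ± 0.69 (edgeR adjusted p = 3.46e-05).

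ZNF735, another KRAB gene, and ZNF280A, a relative of the fly insulator protein Su(Hw), also fell from high 8-cell levels. ZNF735 measured 140, 167, 189 and 75.8 CPM in 8-cell embryos, 21.2, 32.4 and 9.97 CPM in the morulas and 0.816 to 14.2 CPM (median 2.58) in expanded blastocysts, a change of -5.09 ± 0.68 (edgeR adjusted p = 7.89e-05). ZNF280A measured 774, 785, 522 and 623 CPM, then 42.4, 127 and 69.3 CPM, then 16.6 to 114 CPM (median 22.9), a change of -4.14 ± 0.56 (edgeR adjusted p = 0.000129). For both genes the highest expanded blastocyst was 112415_03, the one that overlapped the morulas.

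Of the 6 largest falls the other two were ZNF831 and ZNF582. ZNF831 was at 4.35, 3.13, 18.6 and 15.5 CPM in 8-cell embryos and 0 to 1.05 CPM in expanded blastocysts (log2 change -5.08 ± 1.17, edgeR adjusted p = 0.00287). ZNF582, a KRAB gene, had 19.1, 39.0, 69.9 and 34.1 CPM in 8-cell embryos and 1.40 to 5.95 CPM in expanded blastocysts (-3.51 ± 0.59, edgeR adjusted p = 0.000235).

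The 12 genes that rose changed less in size. ZNF449, a gene of the SCAN kind, was at 4.46, 2.28, 0 and 2.27 CPM in 8-cell embryos, 18.5, 40.6 and 11.5 CPM in the morulas and 6.19 to 24.7 CPM (median 14.5) in expanded blastocysts. Every 8-cell embryo was below every later one, and the change to the expanded blastocyst was 2.71 ± 0.83 (edgeR adjusted p = 0.0166). ZNF124 had 9.91, 4.93, 18.6 and 8.55 CPM in 8-cell embryos, 26.3, 13 and 36.9 CPM in the morulas and 25.2 to 51.5 CPM in expanded blastocysts. Its change was 2.01 ± 0.43 (edgeR adjusted p = 0.00164), and 1.18 without the cumulus-rich embryos (edgeR adjusted p = 0.142).

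ZNF706, which encodes a small protein with a single zinc finger, was even across the 8-cell embryos, at 31.8, 29.8, 34.2 and 40.5 CPM. It measured 73.8, 85.9 and 140 CPM in the morulas and 95.2 to 170 CPM in expanded blastocysts, with no overlap with the 8-cell stage (1.78 ± 0.25, edgeR adjusted p = 5.34e-05). ZNF644, a partner of the H3K9 methyltransferases G9a and GLP, went from 48.9, 30.9, 12.1 and 57.1 CPM to 93.0 to 143 CPM in expanded blastocysts (1.72 ± 0.34, edgeR adjusted p = 0.000959). The last pair among the 6 largest rises, ZNF792 and ZNF823, rose by 1.62 ± 0.54 and 1.51 ± 0.52 (edgeR adjusted p = 0.0246 and 0.0314). The ZNF792 call was lost without 020816_07 or 020816_08 (edgeR adjusted p = 0.0618 and 0.0603), and without the expanded blastocyst 111715_04 (0.0637). The ZNF823 call was lost without 020816_06 or 112815_02 (0.089 and 0.0855), without any one of the 3 expanded blastocysts of code 111715 (up to 0.057), and without the cumulus-rich embryos (1.14, edgeR adjusted p = 0.374).

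**Figure D3:**
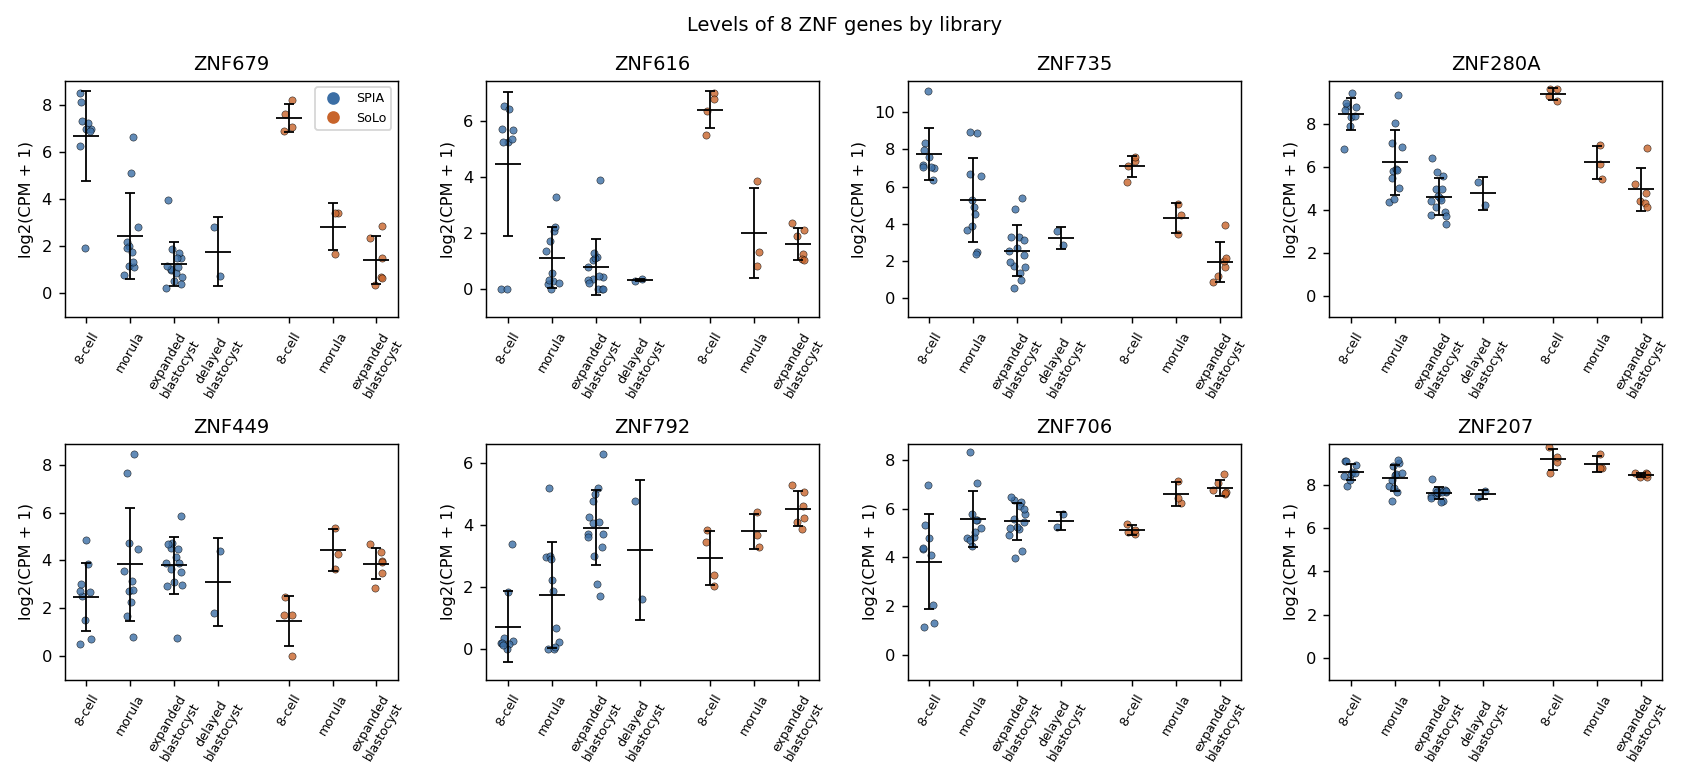
Level of 8 ZNF genes in each library (points; y axis, log2 of TMM-scaled CPM + 1) by stage and kit, with the mean and SD on that scale as bars. ZNF679, ZNF616, ZNF735 and ZNF280A are high in SoLo 8-cell embryos, ZNF449, ZNF792 and ZNF706 are higher later, and ZNF207 fell by 0.78 on the log2 scale from 8-cell to expanded blastocyst in SoLo.

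From the 8-cell embryo to the morula in SoLo, 26 ZNF genes fell and 13 rose, which is 11.2% and 5.6%. Over all genes 6.92% were lower and 9.78% higher, and at the same level 9.36% and 13.5%. The median log2 difference was -0.42, against -0.06 for all genes and 0.03 for genes at the same level. Without the 3 cumulus-rich embryos 17 were lower and 16 higher, and the median was -0.35. The 6 largest falls were those of ZNF679 (-4.67 ± 0.95), ZNF616 (-4.11 ± 0.87), ZNF425, ZNF596, ZNF280A (-3.09 ± 0.70) and ZNF735 (-2.75 ± 0.81), with edgeR adjusted p of 0.00514, 0.00472, 0.0473, 0.0263, 0.0109 and 0.0324. The calls of ZNF425 and ZNF735 were lost without any of several single libraries, with edgeR adjusted p up to 0.0987 and 0.0994. That of ZNF596 was lost without 020816_08, 021016_02 or 021016_03 (0.0778, 0.0719 and 0.0513). ZNF280A was not called without the cumulus-rich embryos (-2.72, edgeR adjusted p = 0.112), nor was ZNF735 (-3.16, 0.0976).

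The largest rises from 8-cell to morula were in ZNF449 (3.38 ± 0.92), ZNF710 (1.8 ± 0.59), ZNF605 (1.71 ± 0.42), ZNF682 (1.64 ± 0.36), ZNF146 (1.62 ± 0.28) and ZNF354A (1.57 ± 0.49). ZNF146, which encodes a protein made almost wholly of zinc fingers, went from 81.0, 75.3, 39.4 and 37.9 CPM in 8-cell embryos to morula values of 233, 164 and 143 CPM (edgeR adjusted p = 0.00105). It stayed at 122 to 167 CPM in expanded blastocysts, above every 8-cell embryo. ZNF682, a KRAB gene, had 12.7, 18, 20.7 and 24.6 CPM and then 62.8, 57.5 and 57.7 CPM (edgeR adjusted p = 0.00549, and 0.0726 without the cumulus-rich embryos). In SPIA its means in stage order were 43.1, 39.0 and 33.6 CPM, highest at the 8-cell stage, as were those of ZNF354A, at 56.7, 51.8 and 15.0 CPM. The call of ZNF449 was lost without 021016_03 (2.75, edgeR adjusted p = 0.0732), that of ZNF605 without 021016_02 (0.0632), and those of ZNF710 and ZNF354A without any of several single libraries (up to 0.116 and 0.156). Without the cumulus-rich embryos ZNF605 (1.39) and ZNF710 (1.81) were not called (edgeR adjusted p = 0.0959 and 0.138).

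Between morula and expanded blastocyst in SoLo, 1 ZNF gene fell and none rose by edgeR, where 1.03% of all genes were lower and 0.113% higher. At an unadjusted p under 0.05 there were 49 ZNF genes (21.1%, against 16.1% of all genes). This was near the 20.9% of genes at the same level. DESeq2 called 10 ZNF genes, among 679 genes of any name. The median log2 difference was -0.36, against 0.05 for all genes. The gene was ZNF878, with 70.2, 110 and 33.8 CPM in the morulas and 14.1 to 39.3 CPM (median 25.2) in expanded blastocysts, which overlap (-1.51 ± 0.33, edgeR adjusted p = 0.0353). Its call was lost without the 8-cell embryo 020816_06 or either morula of code 021016 (edgeR adjusted p = 0.0577, 0.141 and 0.345), and without any one of 4 of the expanded blastocysts (up to 0.0825). Without the expanded blastocyst 112415_03 4 ZNF genes were called, among them ZNF280A (-1.77, edgeR adjusted p = 0.00939) and ZNF735 (-3.29, 0.00228). The morula 022916_01 moved the count most: without it 22 ZNF genes were lower and 5 higher, and 1477 genes of any name were called. Among the named genes then called were ZNF257, ZNF268, ZNF582 and ZNF830, all lower in expanded blastocysts, and ZNF532 and ZNF292, both higher.

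Of the 50 ZNF genes listed for a described role, 37 were members. From 8-cell to expanded blastocyst in SoLo 12 of them fell (32.4%, against 19.8% of all genes) and 5 rose (13.5%, against 18.6%), with a median of -0.56. From 8-cell to morula 4 fell and 4 rose (10.8% each, against 6.92% and 9.78% of all genes). The list was drawn up with earlier results of these data known.

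Among genes of RNA processing and the cell cycle, ZNF473, which encodes the U7 snRNP-associated ZFP100 of histone pre-mRNA processing, is not on that list but was among the 10 with the highest SPIA stage mean. It measured 279, 271, 252 and 216 CPM in 8-cell embryos, 49.1, 44.0 and 55.9 CPM in the morulas and 17.2 to 46.7 CPM in expanded blastocysts (-2.81 ± 0.24, edgeR adjusted p = 5.14e-07). The 8-cell values were close together and at least 216 CPM, and no later embryo exceeded 55.9 CPM. ZNF830, a spliceosome-associated protein, fell from 119, 132, 140 and 55.1 CPM to 12.8 to 21.0 CPM in expanded blastocysts (-2.69 ± 0.30, edgeR adjusted p = 5.26e-06). ZNF207, the kinetochore and spindle protein BuGZ that binds BUB3, had 379, 527, 632 and 871 CPM in 8-cell embryos and 324 to 375 CPM in expanded blastocysts (-0.78 ± 0.20, edgeR adjusted p = 0.00636).

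Another 4 members linked to RNA did not pass the test from 8-cell to expanded blastocyst. ZNF638, an RNA-binding protein that acts with the HUSH complex on retroviral DNA, had a log2 difference of 0.45 ± 0.21. ZNF326, of the DBIRD complex that links splicing to transcription, had 0.50 ± 0.30, and ZNF346, which binds double-stranded RNA, had -1.01 ± 0.73. ZNF598, the ubiquitin ligase that senses collided ribosomes, had -0.80 ± 0.34 (edgeR adjusted p = 0.0699). Without 020816_06 both ZNF326 (0.89) and ZNF598 (-1.01) were called (edgeR adjusted p = 0.0212 and 0.0301). The RNA-binding protein gene ZNF106 did pass, and rose from 164, 170, 121 and 180 CPM to 264 to 317 CPM (0.88 ± 0.23, edgeR adjusted p = 0.00662). Its SPIA means had the opposite order, at 434, 368 and 284 CPM, with 020816_09 at 1798 CPM and an 8-cell median of 286 CPM.

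ZNF143, an activator at many promoters and at snRNA genes, had 101, 53.2, 102 and 104 CPM in 8-cell embryos and 24.5 to 63.1 CPM in expanded blastocysts (-1.44 ± 0.30, edgeR adjusted p = 0.00124). ZNF410, known for its control of the chromatin remodeller gene CHD4, fell by 1.31 ± 0.28 (edgeR adjusted p = 0.00167). ZNF217, which works with the LSD1 and CoREST co-repressors, fell by 0.72 ± 0.19 (edgeR adjusted p = 0.00729), but by 0.28 without the cumulus-rich embryos (edgeR adjusted p = 0.457). Falls were also called for ZNF148 (-0.90 ± 0.24), ZNF131 (-0.87 ± 0.20) and ZNF281 (-0.53 ± 0.19). The ZNF281 call was lost without any of 020816_06, 020816_08 and 112815_02 (edgeR adjusted p = 0.0909, 0.0975 and 0.055), and without any one of 4 of the expanded blastocysts (up to 0.0806). It was lost too without the cumulus-rich embryos, where the difference was -0.71. ZNF131 was not called without the cumulus-rich embryos (edgeR adjusted p = 0.109).

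ZNF532, ZNF592 and ZNF687 encode subunits of one zinc finger complex with ZMYND8, and their values differed. ZNF532 rose from 125, 154, 146 and 121 CPM in 8-cell embryos through 182, 185 and 298 CPM in morulas to 315 to 395 CPM in expanded blastocysts, with no overlap between stages (1.31 ± 0.18, edgeR adjusted p = 4.28e-05). ZNF592 had -0.48 ± 0.31 and ZNF687 had 0.57 ± 0.35, neither past the test. The difference between these genes was not tested.

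ZNF703, a transcriptional repressor of the NET family, had 15.1, 40.1, 1.02 and 64.7 CPM in 8-cell embryos, 16.5, 8.65 and 213 CPM in the morulas and 143 to 318 CPM in expanded blastocysts. All expanded blastocysts were above all 8-cell embryos, and the morula 022916_01 was within their range. With this spread the change of 2.79 ± 1.07 did not pass (edgeR adjusted p = 0.059), and it did pass without 112815_02, 021016_03 or 022916_01 (0.0495, 0.0426 and 0.0187). Its relative ZNF503 had -1.87 ± 1.02, and was called without one expanded blastocyst of code 111215 (-3.09, edgeR adjusted p = 0.0283).

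Members known for silencing repeats and imprints were mixed. ZNF445, which protects genomic imprints, had 55.1, 20.6, 66.9 and 39.4 CPM in 8-cell embryos and 46.0 to 106 CPM in expanded blastocysts, which overlap (0.83 ± 0.35, edgeR adjusted p = 0.0708). In SPIA its means in stage order were 95.7, 40.8 and 52.7 CPM, highest at the 8-cell stage. ZNF91, a repressor of SVA elements in primates, had -0.72 ± 0.29, and ZNF274, which brings SETDB1 to zinc finger gene clusters, had -1.0 ± 0.40 (edgeR adjusted p = 0.0593 and 0.0569). These 3 genes lay near the threshold: ZNF445 was called without 020816_08 (0.0402) or one expanded blastocyst of code 111215 (0.0469), ZNF91 without 112815_02, 111715_01 or 111715_02 (0.0349, 0.0463 and 0.036) and ZNF274 without 020816_06 or 022916_01 (0.038 and 0.0316). The KRAB genes ZNF268 and ZNF589 fell by 1.28 ± 0.22 and 2.19 ± 0.39 (edgeR adjusted p = 0.000361 and 0.000378), as did ZNF263, with a SCAN and a KRAB domain, by 1.45 ± 0.30 (0.00128). ZNF22 fell by 1.56 ± 0.45 (edgeR adjusted p = 0.0116), a call lost without 020816_08 (0.0506).

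The rest of the 10 members with the highest SPIA stage mean had varied patterns. ZNF121 measured 299, 350, 159 and 433 CPM in SoLo 8-cell embryos, 259, 255 and 321 CPM in the morulas and 242 to 360 CPM in expanded blastocysts (-0.14 ± 0.22). Its 8-cell values span the later ones, and with 020816_08 as the 8-cell embryo left, the difference turned to 0.83 (edgeR adjusted p = 0.047). ZNF92, a KRAB gene, had 138, 175, 158 and 449 CPM, then 590, 352 and 234 CPM, then 109 to 225 CPM, and passed no SoLo stage test. Without 112815_02 its rise from 8-cell to morula was called (1.32, edgeR adjusted p = 0.00989). ZNF257, also KRAB, fell from 439, 250, 484 and 481 CPM to 153 to 274 CPM in expanded blastocysts (-1.11 ± 0.24, edgeR adjusted p = 0.0017). ZNF574 fell from 172, 266, 87.2 and 248 CPM to 27.4 to 64.3 CPM (-2.18 ± 0.31, edgeR adjusted p = 5.89e-05), with the cumulus-poor embryo lowest at the 8-cell stage, and -1.03 without the cumulus-rich embryos (edgeR adjusted p = 0.0966).

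The partners of KRAB proteins were a list not chosen by SPIA level, so both kits are given. Of 27 measured co-repressor and H3K9 or DNA methylation genes, 7 rose (25.9%, against 18.6% of all genes) and 6 fell (22.2%, against 19.8%) from 8-cell to expanded blastocyst in SoLo, with a median of -0.01. In SPIA 3 rose (11.1%, against 12.9% of all genes) and 8 fell (29.6%, against 23.7%), with a median of -0.60. TRIM28 itself rose from 361 ± 118 CPM (SD, n = 4) to 540 ± 81.4 CPM (n = 6; 0.58 ± 0.20, edgeR adjusted p = 0.0295). In SPIA it was at 122 ± 64.4 CPM (n = 9) and 104 ± 75.0 CPM (n = 14), a difference of -0.23 ± 0.53 that did not pass (edgeR adjusted p = 0.763). The HUSH subunit gene TASOR rose by 1.05 ± 0.19, while its partners MPHOSPH8 and PPHLN1 fell by 1.68 ± 0.30 and 1.54 ± 0.19 (edgeR adjusted p = 0.000428, 0.000461 and 1.34e-05). In SPIA TASOR did not pass (0.24 ± 0.37, edgeR adjusted p = 0.649), and MPHOSPH8 and PPHLN1 fell by 1.58 ± 0.36 and 1.56 ± 0.35 (0.000595 and 0.0005). The maintenance DNA methylation genes DNMT1 and UHRF1 fell by 5.48 ± 0.56 and 3.20 ± 0.28, and the de novo methyltransferase genes DNMT3A and DNMT3B rose by 2.99 ± 0.63 and 6.52 ± 1.02 (edgeR adjusted p = 2.04e-05, 6.46e-07, 0.00289 and 0.000566). These 4 genes were called in the same direction in SPIA, with changes of -6.36, -4.97, 2.00 and 3.77 (edgeR adjusted p = 6.3e-07, 2.49e-06, 0.00155 and 1.65e-05).

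Another list not chosen by SPIA level was 31 measured genes with other symbols, mostly zinc finger genes of the KRAB or SCAN kind. Their domains were not checked from protein sequence. In SoLo 9 fell (29%, against 19.8% of all genes) and 2 rose (6.45%, against 18.6%) over the same interval. The median of the list was -0.91, against -0.05 for all genes. The 2 that rose were ZFP57 and POGK, the latter by 1.56 ± 0.43 (edgeR adjusted p = 0.00888). In SPIA 6 fell (19.4%, against 23.7% of all genes) and 0 rose (against 12.9%). The SPIA median of -0.44 was close to the -0.43 of all genes. ZIM3, whose KRAB domain is a strong repressor, fell from 529 ± 145 CPM (SD, n = 4) to 8.24 ± 11.4 CPM (n = 6; edgeR adjusted p = 0.00114), and in SPIA from 576 ± 269 CPM (n = 9) to 20.4 ± 35.4 CPM (n = 14; 8.59e-05). ZFP57, the imprint-protecting KRAB gene, was near 0 in 8-cell embryos (0.0617 ± 0.0717 CPM) and stood at 34.2 ± 9.40 CPM in morulas (n = 3) and 31.1 ± 12 CPM in expanded blastocysts (edgeR adjusted p = 1.88e-06 and 3.45e-07 against the 8-cell stage). In SPIA it had 5.13 ± 13.8, 7.53 ± 7.20 and 8.22 ± 5.77 CPM in stage order and did not pass (edgeR adjusted p = 0.772 and 0.653).

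Neighbouring genes were taken from the RefSeq gene list of assembly T2T-MMU8v2.0, used for gene order alone, in which 208 of the 232 were found once. Of these, 59 lay directly next to another member, and 71 fell into 10 runs of at least 4 members with at most 5 protein-coding genes between neighbours. In runs, 33 of 71 fell from 8-cell to expanded blastocyst in SoLo (46.5%) and 3 rose (4.23%), with a median of -1.02. Outside runs, 47 of 137 fell (34.3%) and 8 rose (5.84%), with a median of -0.63. Over all genes tested 19.8% fell and 18.6% rose, and at the same level 25.9% and 23.2%. The counts by run below are read beside these shares. The difference between genes in runs and outside them was not tested, since neighbouring copies are not independent and may share reads.

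The runs named here were picked out after their values were seen. In the run of ZNF45, ZNF224, ZNF226, ZNF227, ZNF235 and ZNF112, 5 of the 6 genes fell in SoLo, with a median of -2.30. All 6 had their highest SoLo mean at the 8-cell stage, as did 63.8% of the 232 ZNF genes. Their SPIA means peaked there too, but SPIA levels chose the genes, so this is a description. ZNF45 went from 68.1 ± 21.6 CPM in 8-cell embryos (SD, n = 4) to 26.3 ± 12.6 CPM in morulas (n = 3) and 9.73 ± 4.01 CPM in expanded blastocysts (n = 6; -2.80 ± 0.38, edgeR adjusted p = 3.78e-05). ZNF227 was the exception, with 22.2 ± 10.5 and 11.5 ± 4.93 CPM (-0.95 ± 0.48, edgeR adjusted p = 0.129). In the 16-gene run from ZNF805 to ZNF256, 10 fell and none rose, and every difference was below 0, from -2.92 to -0.21. The 5-gene run from ZNF350 to ZNF616 had 4 falls.

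Other runs were mixed. None of the 7 genes from ZNF699 to ZNF846 passed the test, with a median of -0.14 and a range of -1.20 to 0.48. The 13-gene run that begins with ZNF146 had 5 falls beside the rise of ZNF146. The 7-gene run from ZNF823 to ZNF791 held both ZNF823, which rose, and ZNF878, which fell by 2.57 ± 0.31 (edgeR adjusted p = 1.38e-05), with 4 falls in all. In the run of ZNF268, ZNF605, ZNF26, ZNF84 and ZNF140, ZNF605 rose by 1.41 ± 0.37 (edgeR adjusted p = 0.0068, and 0.122 without the cumulus-rich embryos) and ZNF268 was one of 2 falls.

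**Figure D4:**
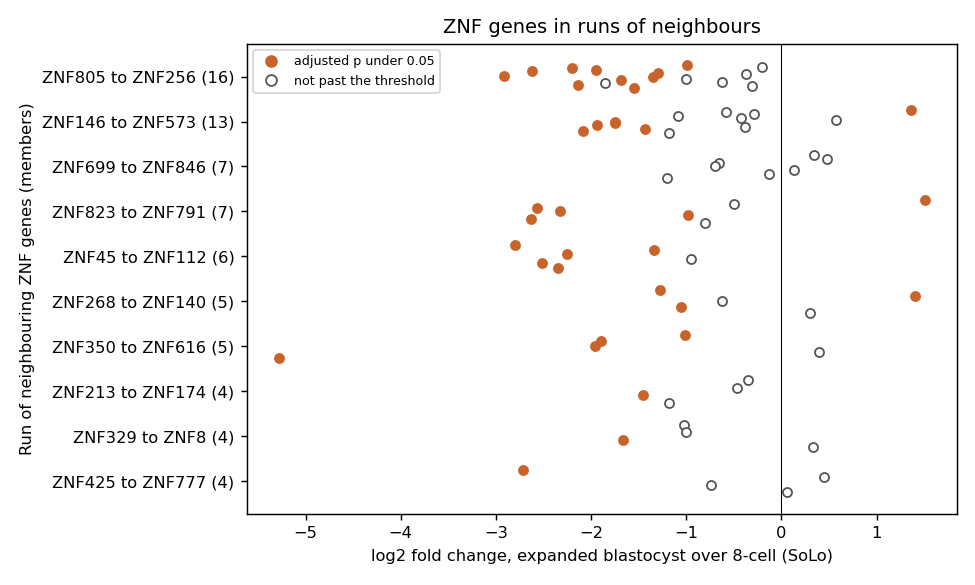
Log2 fold change of expanded blastocyst over 8-cell in SoLo (x axis) for each ZNF gene (points) in 10 runs of neighbouring ZNF genes (y axis, named by the first and last gene with the number of members). Filled points have an edgeR adjusted p under 0.05; in the run from ZNF805 to ZNF256 all 16 points lie below 0, and in that from ZNF699 to ZNF846 none is filled.

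In SPIA, whose levels chose the genes, the counts below are a description. From 8-cell to morula 24 ZNF genes were lower (10.3%) and 3 higher (1.29%). The shares were 10.3% and 9.06% over all genes, and 11.1% and 8.72% at the same level. From morula to expanded blastocyst 33 were lower (14.2%) and 2 higher (0.862%), with 9.95% and 4.71% of all genes, and 11.9% and 3.66% at the same level. From 8-cell to expanded blastocyst 77 were lower (33.2%) and 8 higher (3.45%), with 23.7% and 12.9% of all genes, and 29.1% and 12% at the same level. All genes shifted too in that last contrast, by a median of -0.43, genes at the same level by -0.55, and the ZNF genes by -0.96. Title code 020816 is the one shared by 8-cell embryos and morulas in SPIA, and within it no ZNF gene of 229 was called, with 4 genes of any name called, and the median was -0.56.

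By the stage of the highest mean, 145 ZNF genes (62.5%) peaked at the 8-cell stage in SPIA, 64 (27.6%) in morulas and 23 (9.91%) in expanded blastocysts. For genes at the same level the shares were 49.8%, 28.3% and 21.9%. The corresponding numbers in SoLo were 148 (63.8%), 62 (26.7%) and 22 (9.48%), against 42.7%, 24.2% and 33.1% at the same level. Scaling by library totals instead of TMM gave 170, 43 and 19 in SPIA and 168, 48 and 16 in SoLo. At the same level 59.5% and 52.3% of genes then peaked at the 8-cell stage. The same stage was highest in both kits for 168 of 232 (72.4%), against 66.1% of genes at the same level. With the SPIA embryos that have no SoLo library, 145 matched (62.5%, against 59.7%). By medians of all embryos in place of means, 159 matched (68.5%), below the 69.5% of genes at the same level. The medians peaked in stage order for 138, 43 and 51 ZNF genes in SPIA, and for 146, 59 and 27 in SoLo. At the same level 43.6% and 41.9% of medians peaked at the 8-cell stage.

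Those SPIA embryos are different embryos from the SoLo ones, but SPIA levels chose the genes, so their values are a description. Of the 90 ZNF genes that fell from 8-cell to expanded blastocyst in SoLo, 86 (95.6%) were also lower there, with a median of -1.90, and 33 were called. Of 2194 genes at the same level that fell in SoLo, 95.3% were lower there and 918 were called. Of the 12 ZNF genes that rose, 10 (83.3%) were higher there and 1 was called. Of 1972 genes at the same level that rose, 80.5% were higher there and 412 were called.

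The SPIA genes with the most stage-bound means included some that rest on single libraries. ZNF616, ZNF679, ZNF831, ZNF599 and ZNF771 had the largest ratios of the 8-cell mean to the next. For ZNF831 the SPIA 8-cell mean of 23.5 CPM came from 020816_09 at 199.9 CPM, with a median of 0.51. For ZNF599 the same library had 159 CPM and the mean was 24.3 CPM, and in SoLo its log2 difference was -1.44 ± 1.03. ZNF771 had 11.5 CPM at the 8-cell stage in SPIA and 3.03 to 7.95 CPM in SoLo 8-cell embryos.

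Morula-high genes in SPIA were ZNF154, ZNF449, ZNF37A, ZNF213 and ZNF782. Of these ZNF449 also had its highest SoLo mean in morulas with a called rise from the 8-cell stage. The SoLo log2 difference of morula over 8-cell was -2.64 ± 1.58 for ZNF154, 0.36 ± 0.54 for ZNF37A, -0.85 ± 0.65 for ZNF213 and 0.13 ± 0.64 for ZNF782, none of them called. Highest in expanded blastocysts were ZNF792, ZNF703, ZNF823, ZNF182 and ZNF503. ZNF182 (-0.62 ± 0.63) and ZNF503 had no such rise in SoLo.

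No ZNF gene was called between delayed and expanded blastocysts in SPIA. The summed level was 6477 ± 429 CPM (SD, n = 2) against 6509 ± 1334 CPM (n = 14). By edgeR 0% of all genes were called, and DESeq2 called no ZNF gene either. At an unadjusted p under 0.05 there was 1 (0.431%, against 1.26% of all genes), ZNF432 (2.70 ± 1.25). With 2 delayed embryos, this does not show that the groups are alike.

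Between kits in the 11 embryos whose libraries could be matched one to one, 24 ZNF genes were lower in SoLo (10.3%) and 3 higher (1.29%). Over all genes 9.87% were lower and 8.58% higher, and at the same level 16.1% and 5.88%. The share of ZNF genes lower in SoLo was thus near that of all genes and below that of genes at the same level. The median was -0.26, against 0.08 for all genes and -0.20 for genes at the same level. With the embryo as a block, 23 were lower and 5 higher, the median was -0.05, and 23 of the 27 calls were kept. The lower ones included ZNF257 (-1.04 ± 0.16), ZNF106 (-1.23 ± 0.20), ZNF384 (-1.34 ± 0.23), ZNF92 (-1.08 ± 0.22) and ZNF445 (-1.18 ± 0.34). The higher ones were ZNF277 (1.30 ± 0.40), ZNF770 (0.71 ± 0.24) and ZNF438 (2.83 ± 1.01). These genes were chosen after their values were seen. No ZNF gene had a stage pattern that differed between kits by edgeR (0% of all genes did). There were 9 at an unadjusted p under 0.05 (3.88%), below the 7.14% of all genes and 5.94% of genes at the same level. DESeq2 called ZNF189 and ZNF107, among 45 genes of any name.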

How the data were processed

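The deposited table holds unnormalised counts of reads for each gene, as whole numbers, in a column per library. HISAT2 and DESeq2 are named in the submitters' processing notes, with no versions. The counter, strand setting, annotation and genome build are not given in the sources, so near-identical zinc finger paralogs and overlapping genes may share counts. Of 52 columns, 49 matched a sample (2 of them by group only); 3 matched none and were not used, and 3 of 52 samples had no matched column and were not analysed here.

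Tests on counts used edgeR 4.0.16 in R 4.3.3 (TMM, filterByExpr, robust quasi-likelihood fit, Benjamini-Hochberg adjustment over all genes that pass), SoLo groups together and SPIA groups together; SE is the log2 fold change divided by the square root of F. DESeq2 1.42.0 was an alternative. The steps were tested on simulated counts of 14196 genes for the 8-cell to expanded blastocyst contrast in SoLo: of genes at 10 CPM or more, 27 of 54 changed 4-fold and 47 of 54 changed 16-fold were called. At any level 52 of 100 genes changed 16-fold were called, fewer than first required, and that requirement was replaced by checks of bias, calibration and recovery at 10 CPM or more. A gene that did not pass may therefore still have changed. Figures used matplotlib 3.10.9. Members and lists were chosen with earlier results of these data known. The named genes were the 10 members with the highest SPIA mean, up to 6 called higher and 6 lower per SoLo contrast, the 5 with the largest stage ratio per SPIA stage, 3 on either side of the threshold, and listed genes with a described role. Embryos of a group are separate samples per the labels; embryos that share a title code may share parents, which the labels do not state. Libraries of an embryo in both kits are paired by title: their deviations from the group means correlated in 10 of 11 pairs above 0.1 (median 0.177). No 2 libraries of a group agreed within sampling noise. Counts carry no molecular identifiers, so depth covers counting error only. No sequences were used.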

Additional observations from a re-analysis of the deposited data

Results flagged for a closer look

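Values are listed here where the highest or lowest library of a group of 4 to 10 stood apart from the rest by Dixon's 95% criterion. This was so for 40 of 207 groups of values (19.3%), and 39 of the 40 were a high library. The criterion's chance rate of about 1 in 20 holds for independent values with a normal spread. These groups share libraries, and some genes were named for large stage ratios, so 19.3% cannot be set against that rate. The 8-cell SPIA group held 28 of them, 9 in the library 020816_09.

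In 8-cell SPIA 020816_09 the summed level of the ZNF genes was 20878 CPM after TMM scaling. Their share of its unscaled counts was 1.39%, against a group mean of 1.49%. In the same library ZNF735 was at 2265 CPM, ZNF106 at 1798 CPM, ZNF592 at 1733 CPM and ZNF131 at 201 CPM. ZNF831 was at 199.9 CPM there, ZNF682 at 197 CPM, ZNF599 at 159 CPM and ZNF706 at 123 CPM. In 011516_02 ZNF92 was at 1638 CPM, ZNF257 at 1237 CPM, ZNF318 at 568 CPM, ZNF326 at 158 CPM and ZNF529 at 45.9 CPM. In 011516_03 ZNF710 was at 30.6 CPM and ZNF182 at 12.8 CPM. In 020816_06 ZNF425 was at 84.5 CPM, ZNF827 at 43.5 CPM, ZNF611 at 24.1 CPM and ZNF154 at 22.9 CPM. In 020816_07 ZNF213 was at 47.1 CPM and ZNF687 at 38.0 CPM. In 020816_08 ZNF292 was at 340.2 CPM and ZNF346 at 174 CPM. ZNF449 was at 28.4 CPM in 020816_10, ZNF800 at 115 CPM and ZNF823 at 49.98 CPM in 112815_01, and ZNF792 at 9.36 CPM in 112815_02.

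In the SoLo 8-cell group ZNF92 (449 CPM) and ZNF687 (27.8 CPM) were high in 112815_02, and ZNF143 was low in 020816_07 (53.2 CPM). Among SoLo expanded blastocysts ZNF280A (114 CPM), ZNF735 (14.2 CPM) and ZNF143 (63.1 CPM) were high in 112415_03. There ZNF532 (395 CPM) and ZNF599 (6.65 CPM) were high in 111715_04, and ZNF682 (58.7 CPM) in 111715_01. The libraries of code 111215 were high for ZNF503 (23.6 CPM), ZNF335 (104 CPM) and ZNF165 (17.6 CPM).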

How the results depend on the processing

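The numbers of ZNF genes called in SoLo were 39 (8-cell to morula), 1 (morula to expanded blastocyst) and 102 (8-cell to expanded blastocyst). Leaving out each of the 13 libraries gave 26 to 40, 0 to 27 and 89 to 109; the 6 expanded blastocysts were added to this after seeing the data, and gave 34 to 39, 0 to 4 and 90 to 95. With DESeq2 they were 64, 10 and 120, and without the 20 most abundant identifiers 40, 2 and 105. Without the 3 cumulus-rich embryos, an alternative chosen after seeing the data, they were 33, 3 and 84; ZNF121 (0.83) and ZNF827 (6.11) then changed sign from 8-cell to expanded blastocyst. In SPIA the corresponding 27, 35 and 85 became 44, 37 and 86 with DESeq2 and 6, 12 and 45 in embryos without a SoLo library; DESeq2 size factors gave 23 from morula to expanded blastocyst, and title code 020816 alone gave 0 from 8-cell to morula. Between kits, DESeq2 called 42 against 27, and 2 against 0 for the stage by kit interaction. With the embryo as a replicate block, 28 were called between kits and 0 for the interaction. Choosing members on SPIA embryos without a SoLo library gave 230 genes, with 38, 1 and 103 called in SoLo, and leaving out 020816_09 gave 225 genes; both were added after seeing the data. The causes of these differences were not tested. Depth limits the genes near 10 CPM, and the SPIA library of 600966 counts most.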
